A study of Mus musculus with 9 samples.

Results

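The receptors for sphingosine 1-phosphate (S1P) and the enzymes that make and destroy this lipid were examined in 3 subsets of mouse monocytes. The 8 genes are the receptors S1pr1, S1pr2, S1pr3, S1pr4 and S1pr5, the sphingosine kinases Sphk1 and Sphk2, and the S1P lyase Sgpl1. They were taken by symbol from 46517 genes in the deposited count table, and each symbol matched 1 row. The 9 RNA sequencing libraries came from primary cells of wild-type C57BL/6 mice grown in vitro, with 3 libraries each of conventional (cMo), intermediate (intMo) and patrolling (pMo) monocytes, numbered 0, 1 and 2. The design line of the series lists cMo a second time in place of pMo, so subsets were taken from the sample titles, and each sample's cell type label names the same subset. All 3 subsets share the genotype and strain, and the labels name no treatment, age or sex. Patrolling cells were derived from bone marrow in culture with OP9-DLL1 cells, per the title of the series, a stromal feeder line that carries a Notch ligand. How the subsets were sorted is not stated in the labels. Nothing in the labels says that the libraries of a subset are separate cultures or animals, so p-values measure only the spread between these libraries, which may be technical.

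S1P is a signalling lipid that is abundant in blood and lymph and scarce inside tissues, and this gradient draws leukocytes out of bone marrow and lymphoid organs. Cells make it by phosphorylating sphingosine, release it through transporters, and remove it either by dephosphorylation or by irreversible cleavage with the lyase. The receptors are G protein-coupled: S1PR1 signals through Gi and promotes migration, S1PR2 couples to the G12 and G13 proteins and restrains it, S1PR3 couples to several G proteins, and S1PR4 and S1PR5 are found largely on blood cells. S1PR5 is known as the receptor that natural killer cells and patrolling monocytes need to leave the bone marrow.

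The libraries held 18455116 to 29985684 estimated counts. Levels are given as CPM, counts scaled to the size of the library times its TMM factor, a scaling between libraries. For comparing one gene with another they are given as TPM. It is scaled within each library without that factor and also divides by the length of the gene's exons. Log2 CPM correlated at 0.986 to 0.99 between libraries 1 and 2 of a subset and at 0.951 to 0.975 between either of them and library 0, so the libraries numbered 0 stood apart from the rest. The summed level of 9 conventional monocyte markers ran from 6660 to 11400 CPM in cMo and from 941 to 2890 CPM in the other subsets, and that of 10 patrolling markers from 10100 to 12000 CPM in pMo against 1270 to 4180 CPM elsewhere. All 10 patrolling markers were called higher in pMo against cMo and 8 against intMo. Spn, however, was called lower in intMo than in cMo (99.3 against 277 CPM), and Cx3cr1 was called in neither contrast with intMo. Nr4a1 was the largest part of the pMo sum (4490 CPM). Of the 9 conventional markers, 8 were called lower in intMo and 8 in pMo against cMo. None was called in pMo against intMo, where Hp was higher in pMo (403 against 220 CPM). Markers of other cells were not at 0. The 10 stromal genes summed to 8.28 to 16.1 CPM in cMo, 164 to 545 CPM in intMo and 183 to 371 CPM in pMo, and 7 of the 8 tested were called higher in each of the latter against cMo. Among them, Cxcl12, a chemokine of marrow stroma, stood at 2.81, 93.9 and 79.1 CPM in cMo, intMo and pMo and Dll1, the ligand named in the feeder line, at 0.644, 17.6 and 13.1 CPM, while Dcn was at 0 in every subset. The 9 genes of the granulocyte list had the largest sum of these other lists and set library 0 apart. They summed to 12260, 2205 and 2475 CPM in cMo 0, 1 and 2, 450.2, 4022 and 3742 CPM in intMo, and 544.4, 2453 and 2523 CPM in pMo. The list was not uniform: Elane, Mpo, Prtn3 and Ctsg were called lower in intMo and in pMo against cMo. S100a8, S100a9, Ngp, Ltf and Camp were not called. In bulk libraries, fewer cells that express a gene and less RNA per cell cannot be told apart.

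All 8 genes had enough counts to be tested among 14059 genes. S1pr5 passed that filter only through its pMo libraries, and Sphk1 and S1pr1 passed through intMo and pMo, where they were higher, with 1 and 2 of the 3 cMo libraries over the filter's minimum. A gene was called at an adjusted p under 0.05 over all genes tested in edgeR's quasi-likelihood test. In a test of whether any subset differed, 4 of the 8 genes were called (S1pr1, S1pr4, S1pr5 and Sphk1), against 33.0% of all genes.

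S1pr5 (ENSMUSG00000045087.8, GRCm38 chromosome 9, 21242912 to 21248443, minus strand, protein coding) separated patrolling monocytes from both other subsets. S1pr4 was called lower in intMo than in cMo, a call that did not hold in all alternatives. S1pr2, which lies on the same chromosome as S1pr5, hardly varied. The sequences upstream of the starts of these 3 genes are shown because their patterns of calls, described next, differed. Each is the 250 bases before the RefSeq start (GRCm38.p6), 5′ to 3′ on the gene's strand, with capitals for each CACCC box, the core that KLF factors bind, or its reverse complement GGGTG.
S1pr5 (chr9:21248444-21248693, minus strand): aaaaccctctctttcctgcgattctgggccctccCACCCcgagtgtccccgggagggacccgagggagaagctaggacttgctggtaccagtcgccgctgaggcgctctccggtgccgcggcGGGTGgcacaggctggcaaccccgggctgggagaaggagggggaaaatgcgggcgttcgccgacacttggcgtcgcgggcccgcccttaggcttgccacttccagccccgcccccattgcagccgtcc
S1pr4 (chr10:81500138-81500387, minus strand): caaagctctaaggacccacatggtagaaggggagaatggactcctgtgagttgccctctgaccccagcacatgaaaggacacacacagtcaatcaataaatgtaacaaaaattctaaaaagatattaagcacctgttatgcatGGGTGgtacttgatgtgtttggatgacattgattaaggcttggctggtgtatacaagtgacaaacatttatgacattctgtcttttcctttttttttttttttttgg
S1pr2 (chr9:20976794-20977043, minus strand): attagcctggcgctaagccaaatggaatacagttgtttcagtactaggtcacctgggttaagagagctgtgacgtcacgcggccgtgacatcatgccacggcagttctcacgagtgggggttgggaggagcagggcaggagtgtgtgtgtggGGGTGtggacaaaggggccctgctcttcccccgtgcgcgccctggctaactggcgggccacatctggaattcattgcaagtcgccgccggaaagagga
The box was found at 216 and 128 bases before the start of S1pr5, at 107 bases in S1pr4 and at 98 bases in S1pr2, and it occurs on either strand in 52% of 32851 promoter windows of the same length. None of the 3 windows held TCACACC (T-box factors, in 3.33% of windows), AAAGGTCA (NR4A receptors, 1.34%), GTGGGAA (RBPJ, 5.42%), CCGGAAGT (ETS factors, 2.88%) or the loose C/EBP pattern TTNCNNAA (36.8%), each searched on both strands. S1pr5 had the highest GC content of these 3 windows at 69.2%, with 59.2% for S1pr2 and 38.8% for S1pr4.

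S1pr5 stood at 44.2, 42.0 and 37.5 CPM in pMo libraries 0, 1 and 2. In intMo it was at 0.107, 0.212 and 0.232 CPM, from 2.32, 5.0 and 7.34 estimated counts, and in cMo at 0.828, 0.211 and 0.504 CPM. Each pMo library was far above all 6 others, while cMo and intMo overlapped. The fitted log2 fold change was 7.72 ± 0.44 (SE) for pMo against intMo (edgeR adjusted p = 7.19e-05) and 6.32 ± 0.40 for pMo against cMo (edgeR adjusted p = 1.37e-05). The first corresponds to 210-fold and the second to 79.6-fold, and both rest on 14.7 counts in all for intMo and 42.6 for cMo, so the size is far less certain than the direction. Among 14059 genes, the change of S1pr5 ranked 2 from the top in pMo against intMo and 70 in pMo against cMo. These ranks rest on the same few counts, and S1pr5 passed the filter only through pMo, so they add nothing on the size. Between intMo and cMo S1pr5 did not pass (edgeR adjusted p = 0.0647) at a log2 difference of -1.40 ± 0.49, which was -0.66 with libraries 1 and 2 alone. That difference passed with DESeq2 (adjusted p = 0.0263) and without cMo 1 (edgeR adjusted p = 0.0122).

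Natural killer cells also express S1pr5, and the level of their markers is given beside it. The 10 natural killer and T lymphocyte genes summed to 11.2 to 27.6 CPM in pMo, below the 36.7 to 71.9 CPM of intMo, and to 3.02 to 4.99 CPM in cMo. The intMo sum was mostly Cd8a (16.5 CPM), Klrd1 (15.7 CPM) and Cd4 (14.6 ± 15.4 CPM, SD), so it does not measure natural killer cells alone. Ncr1, which encodes the natural killer receptor NKp46, was at a mean of 0.0411 CPM in pMo, and Gzma, a granule protease of these cells, at 0.0137 CPM. Klrb1c, the NK1.1 antigen, was the 1 gene of that list called higher in pMo against intMo, at 3.46 against 0.831 CPM (edgeR adjusted p = 0.028), while Cd8a was called lower (2.37 against 16.5 CPM, edgeR adjusted p = 0.000699). Of the tested genes not called in that contrast, Prf1 was higher in pMo (0.618 against 0.272 CPM), while Klrd1 (6.03 against 15.7 CPM), Cd3d and Cd4 were lower. Against cMo, Klrb1c, Prf1, Cd8a and Cd4 were called higher in pMo. The part of such cells in the S1pr5 level was not tested beyond these values, and these genes were named after the values were seen.

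**Figure D1:**
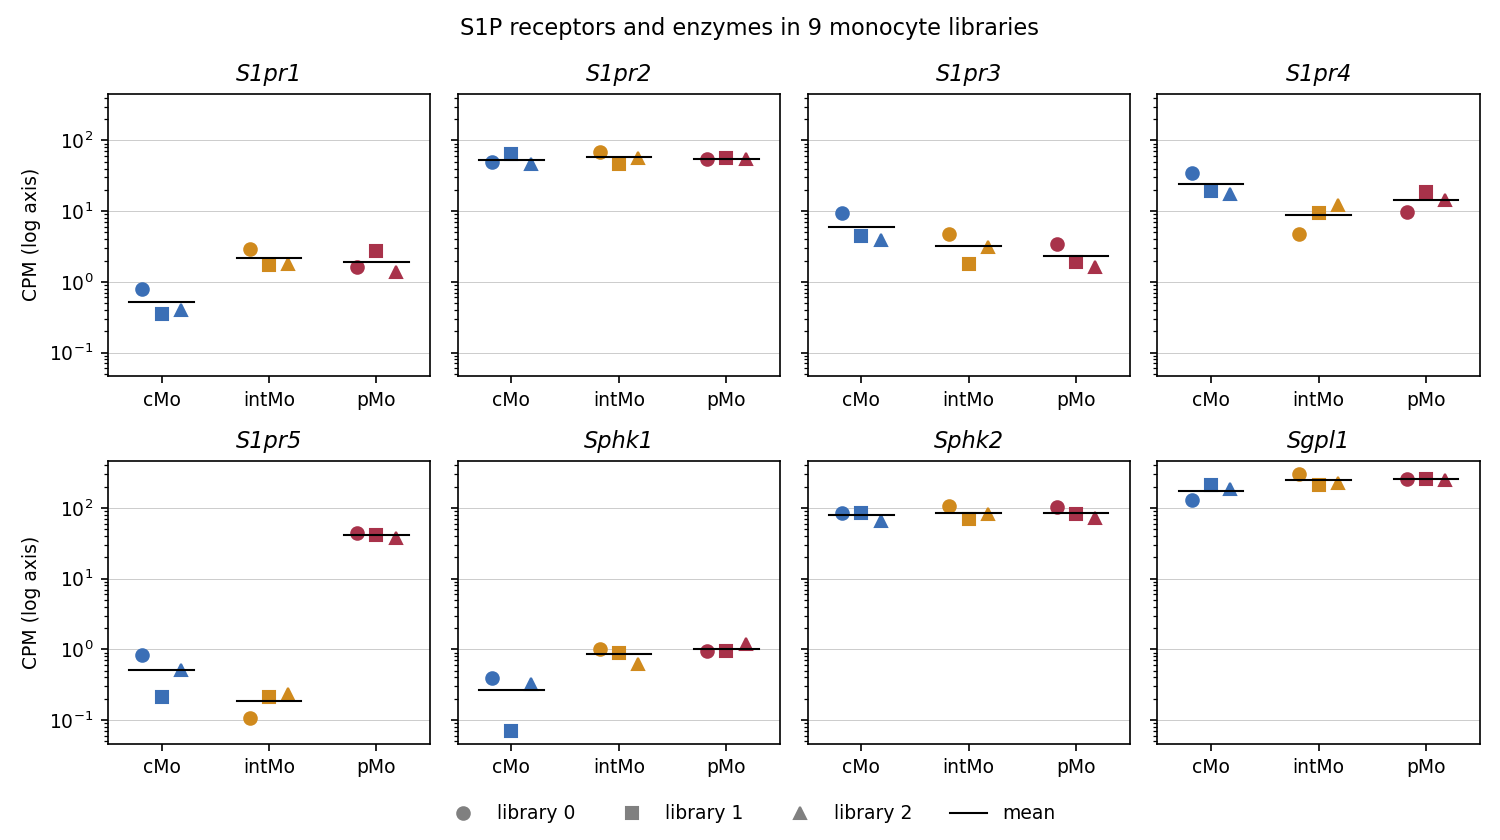
CPM of the 8 genes in each library (log axis, 1 panel a gene, symbol by library number, line at the mean of 3 libraries). S1pr5 lies between 37.5 and 44.2 CPM in pMo and under 1 CPM in every other library, whereas the subsets overlap for S1pr2 and Sphk2.

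S1pr1 (ENSMUSG00000045092.8, chromosome 3, 115710433 to 115715072, protein coding), the receptor best known for lymphocyte exit, rose from cMo to both other subsets but stayed scarce. It was at 0.792, 0.352 and 0.396 CPM in cMo, at 2.95, 1.74 and 1.79 CPM in intMo and at 1.64, 2.77 and 1.36 CPM in pMo. All intMo and pMo libraries were above all cMo libraries, and those of intMo and pMo overlapped. The log2 fold change was 2.06 ± 0.46 (SE) for intMo against cMo (edgeR adjusted p = 0.0117) and 1.90 ± 0.45 for pMo against cMo (edgeR adjusted p = 0.0116), and both comparisons share the cMo libraries. These rest on 43.1 counts in cMo and 149.9 and 149.7 in intMo and pMo. The summed stromal markers moved with S1pr1 across the subsets, and their part in it was not tested. The 6 endothelial genes summed to 29.1 to 47.3 CPM in cMo, 63.2 to 82 CPM in intMo and 70.4 to 132 CPM in pMo, and their part was not tested either. Most of the endothelial sum was Pecam1, at 32.9, 61.35 and 79.7 CPM in cMo, intMo and pMo. Of the 4 tested, Cdh5 was called higher in intMo against cMo (3.39 against 0.404 CPM). It was called lower in pMo against intMo (0.569 against 3.39 CPM, edgeR adjusted p = 0.0101). Kdr (10.3 against 1.93 CPM) and Pecam1 were called higher in pMo against cMo. Tie1 was highest in cMo, at 1.07 CPM beside 0.852 in intMo and 0.922 in pMo, and was not called. Tek and Emcn, too low to test, stayed under 0.1 CPM on average in every subset.

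S1pr2 (ENSMUSG00000043895.6, chromosome 9, 20962361 to 20976781, protein coding) was the most even receptor. Its level was 49.5, 63.4 and 46.8 CPM in cMo, 69.8, 46.6 and 57.1 CPM in intMo and 54.4, 57.2 and 54.6 CPM in pMo, and the subsets overlapped throughout. No contrast was called, with log2 fold changes of 0.12 ± 0.17 (SE) for intMo against cMo, -0.06 ± 0.17 for pMo against intMo and 0.06 ± 0.17 for pMo against cMo.

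S1pr3 (ENSMUSG00000067586.4, chromosome 13, 51408639 to 51422797, protein coding), a receptor shared with vascular cells, was highest in cMo. Its values were 9.32, 4.50 and 3.92 CPM in cMo, 4.77, 1.78 and 3.12 CPM in intMo and 3.45, 1.89 and 1.62 CPM in pMo. Library 0 was the highest of its subset in all 3, and every pMo library was below every cMo library. The log2 difference of pMo from cMo was -1.35 ± 0.48 (SE) and was not called (edgeR adjusted p = 0.0574), nor was that of intMo from cMo (-0.88 ± 0.47, edgeR adjusted p = 0.208). The pMo against cMo difference passed with DESeq2 (adjusted p = 0.0194), with the library number as a block (edgeR adjusted p = 0.00818), with libraries 1 and 2 alone (0.0139), and without intMo 0 (0.0443), intMo 1 (0.0481) or pMo 0 (0.0435).

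S1pr4 (ENSMUSG00000044199.6, chromosome 10, 81497747 to 81500132, protein coding), a receptor of blood cells, fell from cMo to intMo. Libraries 0, 1 and 2 gave 34.8, 19.6 and 17.3 CPM in cMo, 4.77, 9.51 and 12.2 CPM in intMo and 9.61, 18.7 and 14.3 CPM in pMo. The cMo and intMo libraries did not overlap, and pMo overlapped both. The log2 fold change of intMo against cMo was -1.43 ± 0.40 (SE, edgeR adjusted p = 0.0295), and the other contrasts were not called (pMo against cMo -0.75 ± 0.39, pMo against intMo 0.68 ± 0.39). Library 0 held the highest cMo value and the lowest intMo value: the call ended without cMo 0 (edgeR adjusted p = 0.0943), intMo 0 (0.0691) or intMo 1 (0.065), with only the 2 subsets compared (0.0515) and with the library number as a block (0.0539). With libraries 1 and 2 alone it was called at a log2 fold change of -0.76 (edgeR adjusted p = 0.0171). The granulocyte marker sum was likewise highest in cMo 0 and lowest in intMo 0 and pMo 0, where S1pr4 was lowest of its subset, and its part in these values was not tested.

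The kinases differed from each other in level and in pattern. Sphk1 (ENSMUSG00000061878.15, chromosome 11, 116530925 to 116536674, protein coding), the cytosolic kinase that growth signals activate, was near the limit of detection. It was at 0.396, 0.0703 and 0.324 CPM in cMo, 1.02, 0.891 and 0.63 CPM in intMo and 0.945, 0.945 and 1.18 CPM in pMo, or 22.7, 59.1 and 77.6 estimated counts summed over the 3 subsets in that order. All cMo libraries lay below all others. Sphk1 rose in pMo against cMo (log2 1.94 ± 0.53, edgeR adjusted p = 0.0208), a call that ended without pMo 1 (0.0527) or pMo 2 (0.0637) and that could not be made with a filter at 1 CPM, which removed the gene. For intMo against cMo it was not called (log2 1.66 ± 0.54, edgeR adjusted p = 0.0503) but passed with upper quartile scaling (edgeR adjusted p = 0.0456), with DESeq2 (adjusted p = 0.0226) and without cMo 0 (edgeR adjusted p = 0.0491). The stromal marker sum moved with Sphk1 as it did with S1pr1, and its part was not tested. Sphk1 shares 192 exon bases with the antisense gene Gm29292, S1pr5 shares 51 with Gm48303 and S1pr3 shares 45 with Gm32834, all on the opposite strand, and with the strand setting unknown reads of such partners cannot be told apart.

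Sphk2 (ENSMUSG00000057342.15, chromosome 7, 45709467 to 45718002, protein coding), the kinase found mainly in nucleus and mitochondria, was at 85.4, 84.7 and 65.4 CPM in cMo, 107, 69.9 and 81.1 CPM in intMo and 104, 83.1 and 70.9 CPM in pMo. The subsets overlapped, and no log2 difference exceeded 0.13 ± 0.20 (SE). On the opposite strand its exons share 373 bases with the ribosomal protein gene Rpl18 and 539 bases with the clock output gene Dbp, and since the strand setting of the counting is not given, its level is uncertain.

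Sgpl1 (ENSMUSG00000020097.14, chromosome 10, 61098642 to 61147703, protein coding), the lyase that ends S1P signalling for good, had the highest CPM of the 8 genes. It was at 128, 213 and 188 CPM in cMo, 304, 210 and 227 CPM in intMo and 259, 258 and 249 CPM in pMo. Every pMo library was above every cMo library, but the difference was not called (log2 0.53 ± 0.20, SE, edgeR adjusted p = 0.0722), nor was that of intMo (0.49 ± 0.20, edgeR adjusted p = 0.113). It passed for pMo against cMo without cMo 1 (edgeR adjusted p = 0.0451) or intMo 0 (0.0486).

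**Figure D2:**
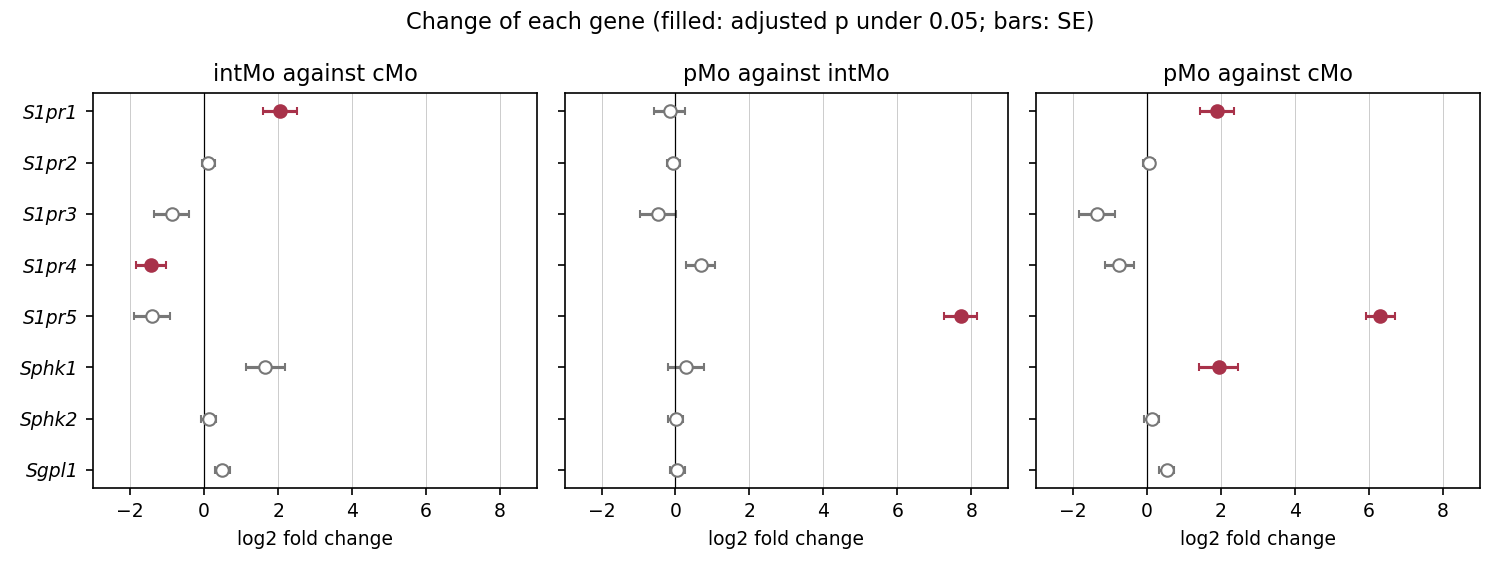
Log2 fold change of each gene in the 3 contrasts, with SE as bars and filled points for an edgeR adjusted p under 0.05. The S1pr5 points at 7.72 and 6.32 lie far to the right of all others, and S1pr2 and Sphk2 lie within 0.13 of 0 in every contrast.

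By contrast, 2 of the 8 genes were called for intMo against cMo, where 24.4% of all genes were called (14.0% higher and 10.4% lower). They were S1pr1, higher, and S1pr4, lower, and 3 of the 8 had libraries that did not overlap, against 41.3% of all genes. For pMo against intMo, S1pr5 was the 1 gene called, where 4.99% of all genes were (3.29% higher, 1.69% lower), and the 1 that did not overlap, against 27.7%. Over all genes, 463 calls were higher and 238 lower, but 1053 and 1371 with libraries 1 and 2 alone and 424 and 433 without intMo 0. For pMo against cMo, S1pr1, S1pr5 and Sphk1 were called higher and none lower, where 33.1% of all genes were called (17.2% higher, 15.9% lower), and 5 did not overlap, against 49.5%. In both contrasts against cMo the share of members called was close to that of all genes. The median log2 change of the 8 genes was 0.12, 0.03 and 0.33 in these contrasts, in that order, beside -0.01, -0.02 and 0.03 for all genes.

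Per base of exon, with the union of exons as the length, the order of the receptors changed with the subset. With mean transcript lengths S1pr2 came first in every subset, as given below. In cMo, S1pr4 (29.4 ± 11.8 TPM, SD, n = 3) and S1pr2 (19.8 ± 4.59 TPM) led and lay within their spread of each other, followed by S1pr3 (3.90 ± 1.95 TPM), S1pr5 (0.59 ± 0.345 TPM) and S1pr1 (0.495 ± 0.23 TPM), of which the last pair did not differ beyond its spread. In intMo, S1pr2 (21.7 ± 4.68 TPM) was above S1pr4 (11 ± 4.70 TPM), then came S1pr3 (2.17 ± 1.03 TPM) and S1pr1 (2.12 ± 0.69 TPM), which were alike within their spread, and S1pr5 (0.231 ± 0.0733 TPM). In pMo, S1pr5 (48.2 ± 5.03 TPM) was first, ahead of S1pr2 (20.3 ± 0.373 TPM) and S1pr4 (17.3 ± 5.02 TPM), which overlapped, and of S1pr1 (1.83 ± 0.659 TPM) and S1pr3 (1.53 ± 0.704 TPM), which overlapped too. Among the enzymes, Sgpl1 (84.7 ± 23.8, 120 ± 25.8 and 121 ± 5.54 TPM in cMo, intMo and pMo) was above Sphk2 (55.8 ± 10.9, 61.8 ± 14.4 and 60.6 ± 13.6 TPM), and Sphk1 never exceeded 0.717 TPM in a library.

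As a share of the summed receptor TPM, S1pr5 made up 54.1 ± 4.55% in pMo (50.7 to 59.2% in the 3 libraries), 0.627 ± 0.21% in intMo and 1.09 ± 0.526% in cMo. The summed receptor level was 54.2 ± 14.6 TPM in cMo, 37.2 ± 4.93 TPM in intMo and 89.1 ± 5.52 TPM in pMo. S1pr4 held 53.3 ± 7.79% in cMo, 29.9 ± 12.3% in intMo and 19.4 ± 5.25% in pMo, and S1pr2 held 37.7 ± 10%, 58.1 ± 8.71% and 22.8 ± 1.14%. These shares depend on the length taken for S1pr2, whose annotated transcripts average 2194.8 bases beside 7971 bases for the union of its exons. With mean transcript lengths S1pr2 led in every subset, with 67.9% of the cMo sum, 83.2% of the intMo sum and 51.7% of the pMo sum, where S1pr5 had 33.8%. The share of S1pr4 in cMo was then 27.5%, and the summed level was 49.3, 43.6 and 65.4 TPM in cMo, intMo and pMo.

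**Figure D3:**
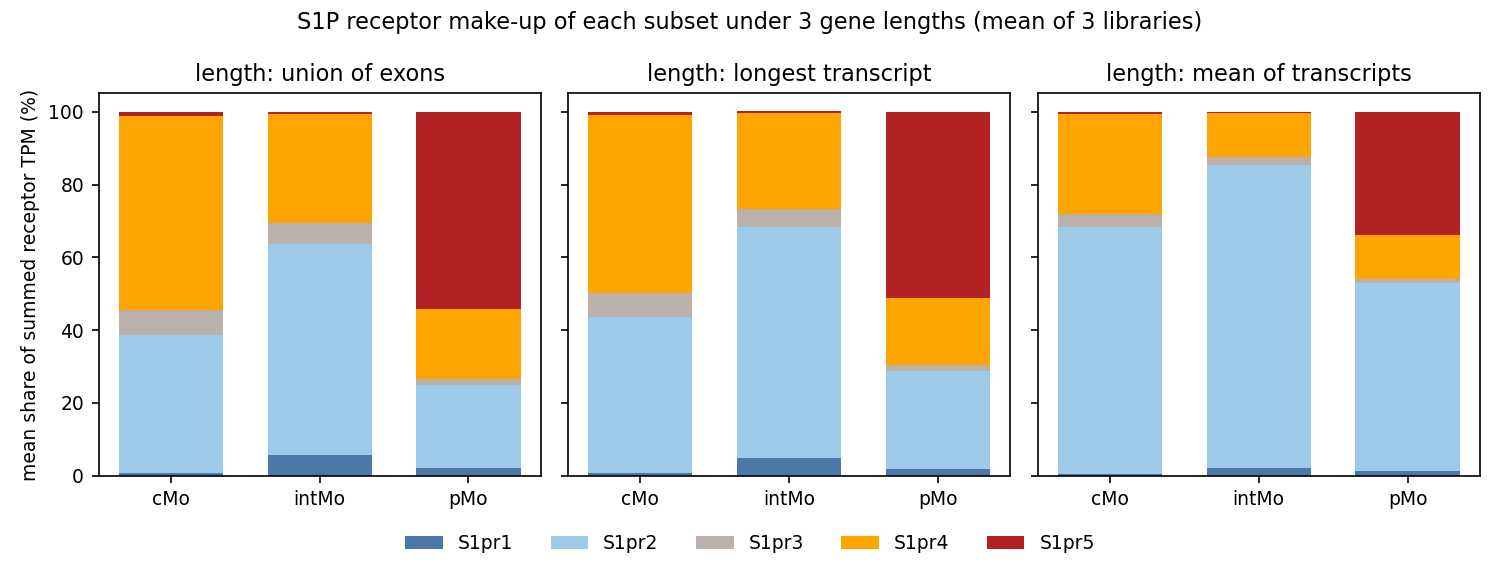
Mean share of each receptor in the summed receptor TPM (percent, mean of 3 libraries per subset), with gene length taken as the union of exons, the longest transcript or the mean of transcripts. S1pr5 fills 54.1%, 51.2% or 33.8% of the pMo bar and about 1% or less of the others.

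The genes whose log2 CPM ran most like each member across the 9 libraries were found by Pearson's r, as a description over libraries that share subsets and depth. For S1pr5 they were Stk24, a kinase (r = 0.989), Wipi2, an autophagy protein (r = 0.988), and Map3k15, a MAP kinase kinase kinase (r = 0.984). Their range was far smaller: Stk24 was at 172 ± 11.4 CPM in cMo, 158 ± 3.99 CPM in intMo and 289 ± 23.6 CPM in pMo. For S1pr4 they were Fdft1, the squalene synthase (r = 0.985), Ltb4r1, a leukotriene B4 receptor (r = 0.983), and Spry2, an inhibitor of growth factor signalling (r = 0.982), and Ltb4r1 was at 44.2 ± 23.9, 11.2 ± 5.95 and 23.3 ± 7.94 CPM in cMo, intMo and pMo. S1pr1 ran with Supt7l (r = 0.971), Ftl1, the ferritin light chain (r = 0.967), and Pgap2 (r = 0.962). Sphk1 ran with Gm13394 (r = 0.974), Nit1 (r = 0.97) and Vamp5, a vesicle fusion protein (r = 0.946). For Sgpl1 the nearest was Cd68, a lysosomal glycoprotein of macrophages (r = 0.992), at 221 ± 61.5, 365 ± 89.7 and 367 ± 20.9 CPM, then Cdip1 (r = 0.986) and Rassf2 (r = 0.971). S1pr3 ran with Emc10 (r = 0.981), Fpgs (r = 0.977) and Med16 (r = 0.97), S1pr2 with Adcy9, an adenylate cyclase (r = 0.961), Atp6v0a1 (r = 0.895) and Sik3 (r = 0.881), and Sphk2 with Phf13 (r = 0.975), Rnpepl1 (r = 0.972) and Hgs (r = 0.965). Within the set, the closest pair was S1pr1 and Sphk1 (r = 0.865), and the most opposed was S1pr4 and Sgpl1 (r = -0.791).

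The other genes of the pathway, 64 in 5 lists, were read from the same fit. Of 8 tested genes of S1P export, carriage and dephosphorylation, 2 rose in intMo against cMo, 1 rose in pMo against intMo and 4 rose in pMo against cMo, and none fell, where 24.4%, 4.99% and 33.1% of all genes were called. The median log2 change was 0.13, 0.02 and 0.64 in that order. Plpp3, a phosphatase that removes S1P outside the cell, rose from 0.263 ± 0.241 CPM in cMo to 5.50 ± 3.26 CPM in intMo (log2 4.36 ± 0.68, SE, edgeR adjusted p = 0.00227) and stood at 4.39 ± 0.774 CPM in pMo (log2 4.04 ± 0.67 against cMo, edgeR adjusted p = 0.00215). Without cMo 0 these changes were 5.40 and 5.09. Plpp1, a related phosphatase, rose from 0.0954 ± 0.0421 CPM to 1.20 ± 0.0605 CPM in intMo (log2 3.59 ± 0.45) and 1.09 ± 0.307 CPM in pMo (log2 3.45 ± 0.45). Both phosphatases were near 0 in cMo and passed the low-count filter only through intMo and pMo, where they were higher. A lower call against cMo was thus hardly possible for them, and the size of their rise is uncertain. The stromal marker sum moved with both phosphatases, and its part was not tested. Abcc1, a transporter that can export S1P, rose from 84.4 ± 8.65 CPM in intMo to 134 ± 13 CPM in pMo (log2 0.67 ± 0.13, edgeR adjusted p = 0.0201), a call that ended without intMo 1, intMo 2 or any pMo library (up to 0.0874). Spns2, the dedicated S1P exporter, was the remaining gene that rose in pMo against cMo, from 1.62 to 4.27 CPM (edgeR adjusted p = 0.00986, log2 1.40 ± 0.32). It was named after the values were seen.

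Among 13 tested genes of de novo sphingolipid synthesis, 1 rose and 5 fell in intMo against cMo, 2 rose in pMo against intMo, and 1 rose and 4 fell in pMo against cMo. That is 6, 2 and 5 of 13 genes, beside 24.4%, 4.99% and 33.1% of all genes. The median log2 change was -0.30, 0.12 and -0.32. Degs2, a desaturase that also makes phytoceramides, stepped up from 12.3 ± 4.67 CPM in cMo to 31.5 ± 3.58 CPM in intMo (log2 1.36 ± 0.26, SE, edgeR adjusted p = 0.00602) and 67.1 ± 3.31 CPM in pMo (log2 2.45 ± 0.27 against cMo, edgeR adjusted p = 0.000269). Degs1, the main dihydroceramide desaturase, fell from 171 ± 24.7 CPM in cMo to 82.2 ± 9.64 CPM in intMo (log2 -1.05 ± 0.15, edgeR adjusted p = 0.00143) and stood at 128 ± 12.0 CPM in pMo. Sptssa, a small subunit of the first enzyme of the pathway, fell from 102 ± 21.4 CPM in cMo to 48.3 ± 5.84 CPM in pMo (log2 -1.08 ± 0.22, edgeR adjusted p = 0.00512). The rises of Degs1 and Degs2 from intMo to pMo (log2 0.64 ± 0.15 and 1.09 ± 0.25) had edgeR adjusted p of 0.0399 and 0.042. Both calls ended with upper quartile scaling and without any 1 intMo or pMo library, as did that of Degs1 without cMo 1 and that of Degs2 without cMo 2 or with the 1 CPM filter (up to 0.183 and 0.154).

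Of 15 genes of ceramide and sphingosine turnover, 2 rose and 1 fell in intMo against cMo, 1 rose and 2 fell in pMo against intMo, and 2 rose and 2 fell in pMo against cMo, beside 24.4%, 4.99% and 33.1% of all genes called. The median log2 change was 0.23, -0.04 and 0.22. Ugcg, the glucosylceramide synthase, was highest in intMo, rising from 23.9 ± 3.01 to 61.0 ± 6.93 CPM (edgeR adjusted p = 0.000466, log2 1.35 ± 0.15, SE). Galc, a lysosomal galactosylceramidase, rose from 54.7 ± 9.29 CPM in cMo to 116 ± 29.0 CPM in intMo (log2 1.08 ± 0.19, edgeR adjusted p = 0.00451). It fell to 65.3 ± 3.08 CPM in pMo (log2 -0.82 ± 0.19, edgeR adjusted p = 0.0414), a call that ended with the block by library number (edgeR adjusted p = 0.0697) and without cMo 1, cMo 2 or any intMo or pMo library (up to 0.165). Sgms1, a sphingomyelin synthase, rose from 24.1 ± 4.57 CPM in intMo to 58.6 ± 1.92 CPM in pMo (log2 1.28 ± 0.21, edgeR adjusted p = 0.01). Against the 35.7 ± 8.83 CPM of cMo it rose by a log2 of 0.71 ± 0.21 (edgeR adjusted p = 0.026), and that call ended without cMo 0 or any pMo library (up to 0.0686). Smpd1, the acid sphingomyelinase, fell from 28.8 ± 0.772 CPM in cMo to 17.1 ± 1.37 CPM in pMo (log2 -0.75 ± 0.13, edgeR adjusted p = 0.00247).

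Among 14 tested genes of receptor coupling and control, 3 rose and 2 fell in intMo against cMo, 2 rose in pMo against intMo, and 5 rose and 1 fell in pMo against cMo, where the shares of all genes called were 24.4%, 4.99% and 33.1%. The median log2 change was -0.06, 0.21 and 0.09. Klf2, a transcription factor that controls S1P receptor genes in lymphocytes, was lowest in intMo, at 85.5 ± 14.2 CPM in cMo, 37.9 ± 5.83 CPM in intMo and 145 ± 42.8 CPM in pMo. It fell in intMo against cMo (log2 -1.17 ± 0.22, SE, edgeR adjusted p = 0.00619) and rose in pMo against intMo (log2 1.94 ± 0.23, edgeR adjusted p = 0.00257). The subset means of Klf2 and of S1pr5 were in the same order, although cMo and intMo were not called apart for S1pr5, with a 3.83-fold step for Klf2 from intMo to pMo beside the 210-fold step of S1pr5. S1pr1 ran the other way in intMo against cMo, being called higher where Klf2 was called lower. In pMo against cMo both were called higher (Klf2 log2 0.76 ± 0.22, edgeR adjusted p = 0.0266). The part of Klf2 in the receptor levels was not tested. Gna12, a G protein subunit that S1PR2 uses, rose from 72.4 ± 10.8 CPM in cMo to 187 ± 93.9 CPM in intMo (log2 1.37 ± 0.33, edgeR adjusted p = 0.0172, and 0.0587 without cMo 2). Its relative Gna13 rose from 122 ± 13.4 CPM in cMo to 230 ± 21 CPM in pMo (log2 0.91 ± 0.14, edgeR adjusted p = 0.00128). From the 155 ± 15.4 CPM of intMo the rise of Gna13 had an edgeR adjusted p of 0.0455 (log2 0.57 ± 0.14), which was lost in 11 of 17 alternatives: RLE or upper quartile scaling, no filter, the 1 CPM filter, only the 2 subsets compared, and without cMo 1, intMo 1, intMo 2 or any pMo library (up to 0.155). Arrb1, an arrestin that takes receptors off the surface, rose from 223 ± 65.5 CPM in cMo to 542 ± 41.5 CPM in pMo (log2 1.28 ± 0.22, edgeR adjusted p = 0.00256).

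The receptors for lysophosphatidic acid, a lipid related to S1P, and autotaxin, the enzyme that makes it, included 6 tested genes. Of these 2 rose in intMo against cMo and the same number in pMo against cMo, none fell, and none was called in pMo against intMo, with 24.4%, 33.1% and 4.99% of all genes called in these contrasts. The median log2 change was 0.73, 0.02 and 0.74. Lpar1 rose from 0.202 ± 0.0525 CPM in cMo to 3.16 ± 1.36 CPM in intMo (log2 3.93 ± 0.42, SE, edgeR adjusted p = 0.000395) and 2.07 ± 0.21 CPM in pMo (log2 3.33 ± 0.42, edgeR adjusted p = 0.00056), with 3.34 for intMo in libraries 1 and 2 alone. Enpp2, which encodes autotaxin, was at 0.0714 CPM in cMo, 0.556 ± 0.339 CPM in intMo and 1.77 ± 1.18 CPM in pMo. It rose in pMo against cMo (log2 4.54 ± 0.84, edgeR adjusted p = 0.00351) and in intMo against cMo (log2 2.90 ± 0.86, edgeR adjusted p = 0.0376), a call that was lost when pMo 1, intMo 1, intMo 2 or each of the cMo libraries in turn was left out (up to 0.0986). Lpar1 and Enpp2 were near 0 in cMo and passed the low-count filter only through intMo and pMo, where they were higher. A lower call against cMo was thus hardly possible for them, and the size of their rise is uncertain. The stromal marker sum was also higher in both subsets than in cMo. From intMo to pMo Enpp2 had a log2 change of 1.64 (not called), beside a median of -0.21 for the stromal genes. The part of stromal cells in Lpar1 and Enpp2 was not tested.

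**Figure D4:**
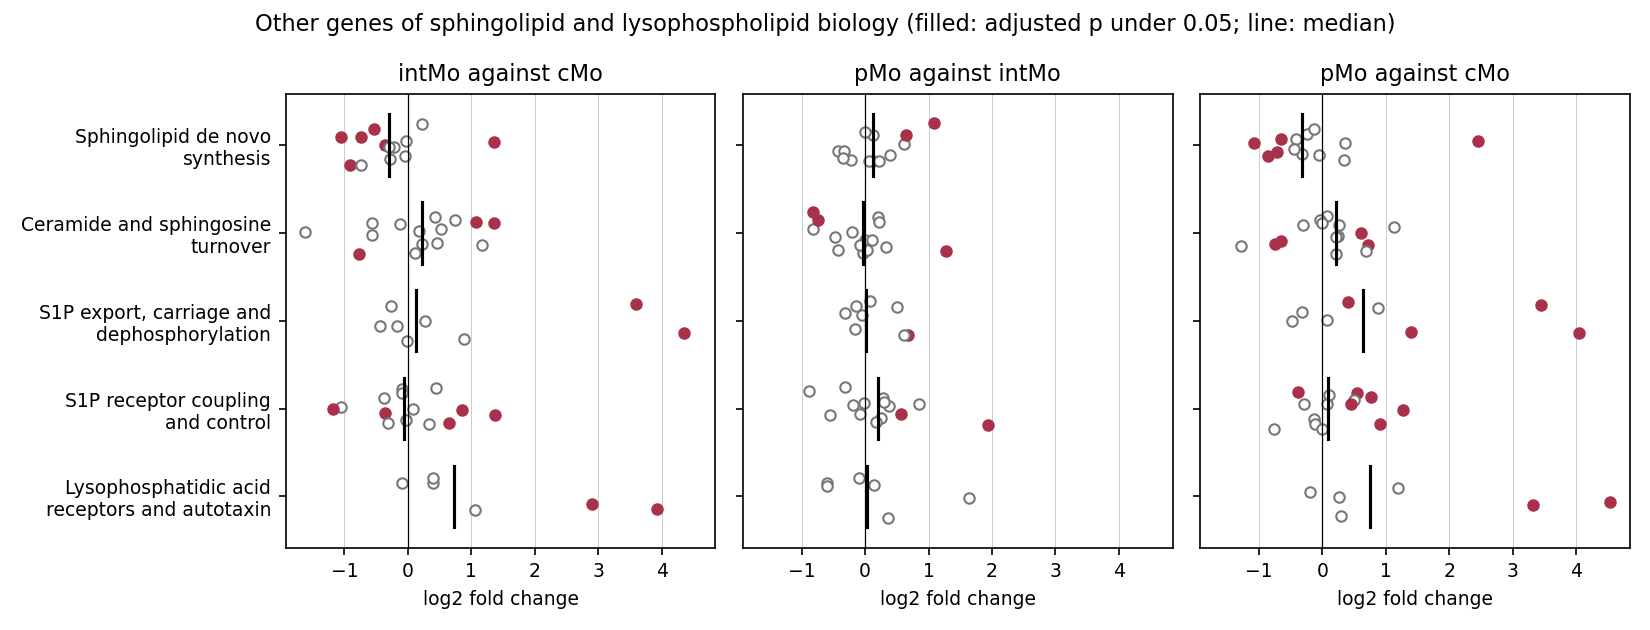
Log2 fold change of every tested gene of the 5 pathway lists in the 3 contrasts (points filled for an edgeR adjusted p under 0.05, vertical line at the list's median). Plpp1, Plpp3, Lpar1 and Enpp2 form the group beyond 2.5 in both contrasts against cMo, and most other genes lie within 1.5 of 0.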

How the data were processed

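Libraries came from RNAzol extracts and a stranded mRNA kit (NEBnext Ultra II), per the labels' protocols. The authors deposited estimated counts per gene for 9 libraries, made with kallisto 0.46.1 and mm10 per the submitters' processing notes. Not given in the sources used here were the annotation, how transcripts were summed to genes, any filters and the strand setting. Of 46517 gene IDs, 46005 matched a symbol of GENCODE M21 (GRCm38) and 512 did not, and IDs were matched without their version suffix. Counts were rounded, filtered with filterByExpr (14059 genes left) and scaled by TMM. All 9 libraries entered 1 model with a mean for each subset (edgeR 4.0.16, robust quasi-likelihood F test, R 4.3.3), with Benjamini-Hochberg adjustment over all genes tested. SEs are the absolute log2 fold change over the root of F. TPM used the union of annotated exons, without an effective length correction. Upstream sequences come from RefSeq (GRCm38.p6), which listed 7 of the 8 genes, and the 50 bases after each start were left out.

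The members, the 5 pathway lists and the 8 marker lists were chosen from general knowledge with earlier results of these data known. Besides the members, the text names from each pathway list the 2 called genes with the largest change and no overlap in each contrast, and for each member the 3 genes of at least 5 CPM with the highest correlation of log2 CPM (prior count 2). Deviations from the subset mean correlated at 0.588, 0.3 and 0.274 between intMo and pMo libraries numbered 0, 1 and 2. Between intMo 1 and pMo 2 they correlated at 0.403, and between intMo 2 and pMo 1 at 0.279. Only library 0 was thus matched by its number, and the labels do not say what a number marks. The main fit left the numbers out, and a block by library number was an alternative. Libraries of the same number in cMo and another subset ran from -0.143 to 0.23 and were not taken as pairs. The edgeR steps were also run on simulated counts of independent libraries. These held no effect of library 0 and no change as large as that of S1pr5, so they do not bear on either. Alternatives were other scalings (RLE, upper quartile), filters and lengths, DESeq2 1.42.0, fits to 2 subsets, a block by library number, libraries 1 and 2 alone, and leaving out each library. Those for the pathway genes were added after the data were seen. Since no molecular identifiers are mentioned, counts are of reads and not of molecules.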

Additional observations from a re-analysis of the deposited data

How the results depend on the processing

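Across 404 refits of the members' changes, 362 kept their direction and their side of the threshold, 7 lost a call, 13 gained one and 22 changed sign, the last all among changes that were not called. The S1pr5 calls of pMo against intMo (log2 7.45 to 7.93) and against cMo (5.94 to 6.83) and the S1pr1 calls against cMo held under all 17 alternatives. In pMo against intMo 1 member was called throughout. For intMo against cMo, where 2 members were called, DESeq2 called 4, the fit to 2 subsets 1 and the replicate block 1, and leaving out 1 library gave 1 to 3. For pMo against cMo, with 3 called, leaving out 1 library gave 2 to 5. In the test of any subset, with 4 called, no low-count filter gave 2, the 1 CPM filter 2, and leaving out 1 library 1 to 3 (1 without cMo 1 or cMo 2, 2 without intMo 0, intMo 1 or any pMo library). Over all genes, pMo against intMo had 701 calls, 1412 with DESeq2, 2424 with libraries 1 and 2 alone and 221 to 1107 on leaving out 1 library, and intMo against cMo had 3433, and 2213 in the fit to 2 subsets. The cause of these shifts was not tested. Fits without some libraries also hold fewer samples, and for pMo against intMo their calls went both below and above 701.

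Among the sign changes, S1pr1 in pMo against intMo was 0.235 with libraries 1 and 2 alone and -0.51 to 0.13 on leaving out 1 library. S1pr2 with libraries 1 and 2 alone was -0.083 in intMo against cMo and 0.11 in pMo against intMo, and on leaving out 1 library it ran from -0.031 to 0.26, from -0.20 to 0.097, and in pMo against cMo from -0.030 to 0.20. Sgpl1 in pMo against intMo was -0.010 with upper quartile scaling and -0.057 to 0.22 on leaving out 1 library. Sphk2 in pMo against intMo was -0.0047 with RLE, -0.055 with upper quartile scaling, -0.022 with the 1 CPM filter, -0.0047 with DESeq2, -0.014 in the fit to 2 subsets, -0.00048 with the replicate block and -0.15 to 0.19 on leaving out 1 library. On leaving out 1 library it ran from -0.049 to 0.26 in intMo against cMo and from -0.020 to 0.26 in pMo against cMo.

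For pMo against intMo, the replicate block gave 836 calls over all genes. Among the members and the pathway genes named by the rule, it ended the call of Galc (edgeR adjusted p = 0.0697) and no other. The marker genes Klrb1c and Cd8a were not followed through the alternatives. The numbers did not pair libraries 1 and 2 of these subsets, as intMo 1 correlated better with pMo 2 (0.403) than with pMo 1 (0.3). In the contrasts the block changed the calls of S1pr4 and S1pr3 given above and of no other member. On leaving out 1 library, called genes numbered 2 to 5 of 13 in de novo synthesis (intMo against cMo), 2 to 5 of 14 in receptor coupling (intMo against cMo) and 3 to 7 of 14 (pMo against cMo). Depth limits S1pr1, Sphk1 and the low S1pr5 values, which rest on 2 to 79 counts per library.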
